A study of Mus musculus with 4 samples.

Results

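The enzymes of the pentose phosphate pathway and the NADPH-producing malic enzyme and isocitrate dehydrogenases were followed in B16 cells, a mouse melanoma line, with and without EM-plasma. The 10 genes are G6pdx, Pgd, Pgls, Taldo1, Tkt, Rpia, Rpe, Me1, Idh1 and Idh2. They were taken by symbol from the 53465 gene rows of the count table, and 10 of 10 had a row and passed the filter on low counts that left 13664 tested genes. The control group holds 2 libraries of B16 cells labelled as control, and the EM-plasma group holds 2 libraries of B16 cells whose treatment is labelled as plasma treated with exosome-mimetic nanovesicles (EMs), with a time of 4 h. No time is given for the control libraries. What kind of plasma this was and what the control cells received are not stated, nor is it stated that libraries of a group came from separate cultures. The p-values therefore measure only the spread between these libraries, which may be technical, and the cells are 1 line.

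The pentose phosphate pathway branches off glycolysis at glucose 6-phosphate. Its oxidative arm yields NADPH and ribulose 5-phosphate, and its reversible non-oxidative arm converts pentose phosphates back to glycolytic sugars or supplies ribose for nucleotides. Malic enzyme and the NADP-dependent isocitrate dehydrogenases make NADPH from malate and isocitrate. NADPH serves the reduction of glutathione and thioredoxin as well as the synthesis of fatty acids and sterols, and several of these enzyme genes are known targets of the antioxidant factor NRF2 or of the SREBP lipid factors.

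Poly(A) RNA was sequenced to a total count of 46295133 to 49367932 per library. The 10 enzymes together took 0.201% to 0.215% of the counts of a library. Single enzyme counts ran from 1671 to 23929 reads, so that counting error alone was 0.646% to 2.45% of a value. Markers of the melanocyte lineage were present in 8 of 8 cases, with a summed level of 14304 to 14437 CPM in controls and 14566 to 14815 CPM in treated cells (CPM, counts scaled to each library's TMM-adjusted total), and 0 of the 8 were called. The summed level of 6 macrophage markers was at most 1.93 CPM, with overlapping groups. That of 5 fibroblast markers was 29.3 and 27.6 CPM in the controls and 30.4 and 29.3 CPM in the treated libraries, and the part of these markers in the results was not tested. Ptprc, Adgre1 and Itgam of the macrophage markers and Hbb-bs, Alas2, Pf4 and Ppbp of the red cell and platelet markers had 0 reads in the 4 libraries. In bulk RNA a smaller share of cells with a transcript and less of it per cell cannot be told apart.

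G6pdx and Pgd, the dehydrogenases of the oxidative arm, and Taldo1 of the non-oxidative arm rose in EM-plasma-treated cells by 17.8%, 18.04% and 12.5%, while Idh1, the cytosolic isocitrate dehydrogenase, fell by 16.8%. The other 6 enzymes did not pass the test. By edgeR's quasi-likelihood test 3 of 10 enzymes were called higher and 1 of 10 lower at an adjusted p below 0.05, where 3.34% and 2.88% of all tested genes were called in these directions. The median log2 fold change of the 10 was 0.040, against -0.0027 over all tested genes. Both treated libraries lay above both controls for 4 enzymes, where 24.3% of tested genes did so, and below both for 3, where 24.8% did, so that the groups did not overlap for 7 enzymes and for 49.1% of all tested genes. Without the filter on low counts 14 genes were called in all and 0 of them were among the 10 enzymes (adjusted p = 0.126 to 0.252 for the 4 enzymes called with it), and none was in the gene lists described further on.

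**Figure D1:**
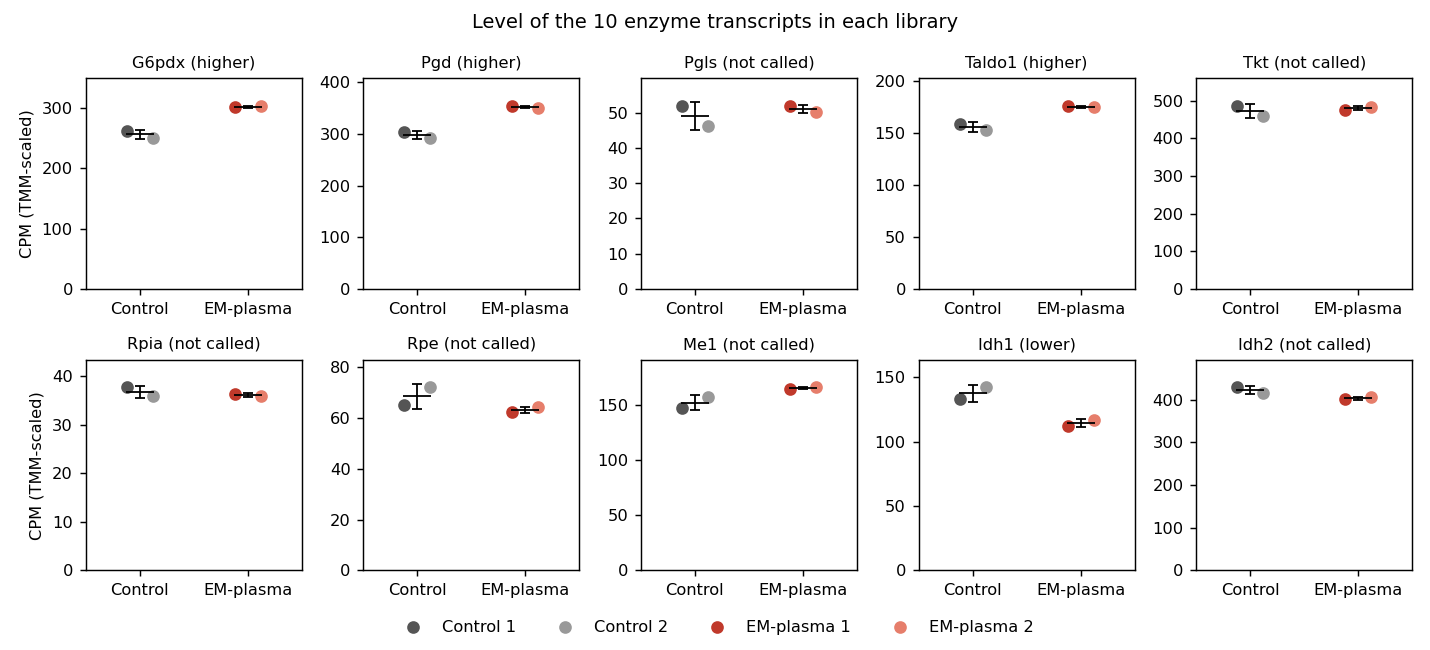
CPM of the 10 enzyme transcripts in each library, one panel per gene with its own axis from 0 (points: libraries; black bars: group mean and SD, n = 2; the call is in the title). The treated libraries sit above both controls for G6pdx, Pgd, Taldo1 and Me1 and below both for Rpe, Idh1 and Idh2.

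G6pdx encodes glucose-6-phosphate dehydrogenase, which commits glucose 6-phosphate to the pathway and makes the first NADPH (chromosome X, 74409483 to 74429194 on GRCm38, minus strand, ENSMUSG00000031400). Its level was 262 and 251 CPM in control 1 and 2 and 300.4 and 303 CPM in EM-plasma 1 and 2. Both treated libraries were higher than both controls, and the gap between groups was larger than the spread within either. The group mean went from 256 ± 7.76 CPM (SD, n = 2) to 302 ± 1.84 CPM, a 1.18-fold rise. On the log2 scale this was 0.24 with an SE of 0.044 (adjusted p = 0.000922). Exons of Ikbkg, a gene on the opposite strand, share 418 bases with those of G6pdx, and Ikbkg had a log2 fold change of 0.021 (adjusted p = 0.889). G6pd2, an intronless copy of G6pdx, had 1 read in 1 library.

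Pgd encodes 6-phosphogluconate dehydrogenase, the other NADPH-making step of this arm (chromosome 4, 149149991 to 149166771, minus strand, ENSMUSG00000028961). It was at 304 and 293 CPM in the controls and at 355 and 351 CPM in the treated libraries. The groups did not overlap here either. Its mean of 299 ± 7.76 CPM went to 353 ± 2.60 CPM, again a 1.18-fold rise (0.24 on the log2 scale with an SE of 0.043, adjusted p = 0.000598). The 95% intervals of the log2 fold change were 0.15 to 0.33 for both dehydrogenases.

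Pgls, whose lactonase works between these dehydrogenases (chromosome 8, 71592176 to 71601092, plus strand, ENSMUSG00000031807), was at 51.7 and 46.3 CPM in the controls and at 51.9 and 50.1 CPM in the treated libraries. The groups overlapped, because control 1 lay between the treated libraries. The log2 fold change was 0.058 (95% interval -0.074 to 0.19, adjusted p = 0.679). Pgls shares 776 exon bases with Fam129c on the same strand, a gene with 119 to 145 reads per library. Within a library the ratio of G6pdx to Pgls, per kilobase of transcript, was 5.12 and 5.49 in the controls and 5.87 and 6.12 in the treated libraries. That ratio needs no scaling between libraries, and its groups did not overlap. It was not set beforehand and puts an enzyme called higher over one not called. It is therefore no support apart from the call of G6pdx.

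The calls of G6pdx and Pgd held without either control library (adjusted p from 0.00265 to 0.00891). They ended without EM-plasma 1 (adjusted p = 0.0862 and 0.106) and without EM-plasma 2 (0.126 and 0.0744), although the log2 fold changes stayed between 0.21 and 0.27. The fits without a treated library took their spread from the controls, with a biological coefficient of variation of 5.01% against 2.43% and 2.46% without a control. In these fits without a treated library the spread came from a trend over all tested genes. The spread of G6pdx or Pgd itself between the controls did not enter. When the filter on low counts was also recomputed after leaving out control 2, both calls ended as well (adjusted p = 0.0763 and 0.0706).

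**Figure D2:**
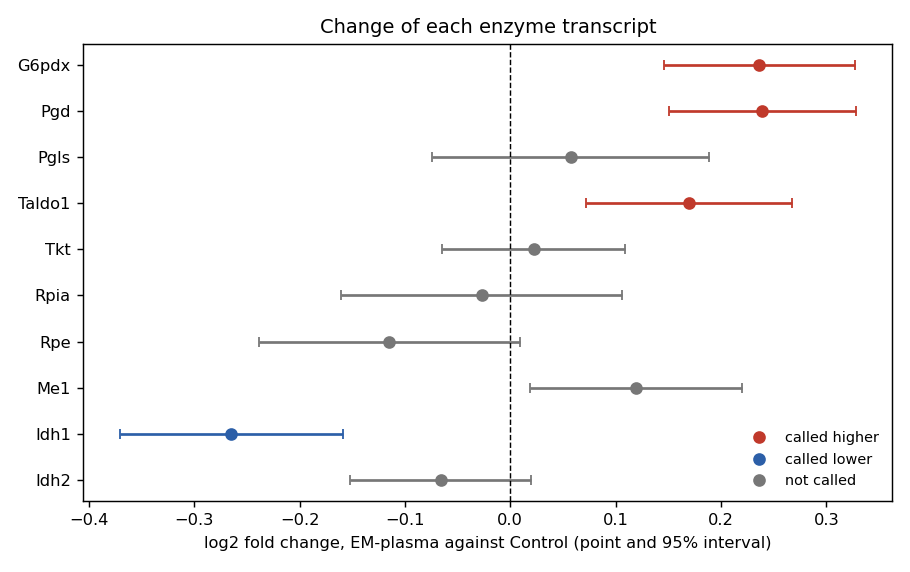
Log2 fold change of EM-plasma against control for each enzyme (points) with its 95% interval (bars), coloured by call. The intervals of G6pdx, Pgd, Taldo1, Me1 and Idh1 exclude 0, and Me1 did not pass after adjustment.

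In the non-oxidative arm Taldo1, transaldolase, which moves a dihydroxyacetone unit between sugar phosphates, was the enzyme that rose (chromosome 7, 141392199 to 141402968, plus strand, ENSMUSG00000025503). It was at 159 and 153 CPM in the controls and at 176 and 175 CPM in the treated libraries, without overlap. The mean of 156 ± 4.51 CPM went to 176 ± 1.02 CPM, a 1.12-fold rise (0.17 on the log2 scale with an SE of 0.048, adjusted p = 0.0289). Its call held without either control (adjusted p = 0.0234 and 0.0486) and ended without EM-plasma 1 (0.503), without EM-plasma 2 (0.417) and, with the filter recomputed, without control 2 (0.159).

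Tkt, the thiamine-dependent transketolase that works beside transaldolase (chromosome 14, 30548359 to 30574720, plus strand, ENSMUSG00000021957), was at 486 and 459 CPM in the controls and at 476 and 484 CPM in the treated libraries. Its treated values lay between the controls, and the 95% interval of the log2 fold change ran from -0.065 to 0.11 (adjusted p = 0.832). The ratio of Taldo1 to Tkt per kilobase was 0.776 and 0.788 in the controls and 0.877 and 0.855 in the treated libraries. Its groups did not overlap, but this ratio too was not set beforehand and restates the call of Taldo1.

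Rpia and Rpe, the isomerase and epimerase that sort ribulose 5-phosphate into ribose 5-phosphate and xylulose 5-phosphate, did not pass the test. Rpia (chromosome 6, 70765720 to 70792232, minus strand, ENSMUSG00000053604) was at 37.7 and 36.0 CPM in the controls and 36.4 and 35.9 CPM in the treated libraries, with overlapping groups (log2 fold change -0.027, 95% interval -0.16 to 0.11, adjusted p = 0.871). Rpe (chromosome 1, 66700831 to 66719805, plus strand, ENSMUSG00000026005) was at 65.1 and 72.1 CPM in the controls and 62.5 and 64.2 CPM in the treated libraries. Control 2 stood apart for Rpe, and control 1 lay close above the treated values. Its log2 fold change was -0.12 (95% interval -0.24 to 0.0088, adjusted p = 0.302). Rpe shares 558 exon bases with Kansl1l on the opposite strand.

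Me1 encodes the cytosolic malic enzyme, which turns malate into pyruvate with the gain of NADPH (chromosome 9, 86581371 to 86695953, minus strand, ENSMUSG00000032418). It was at 147 and 157 CPM in the controls and at 164 and 166 CPM in the treated libraries. Both treated values were above both controls, but the gap to control 2 was smaller than that between the controls. The log2 fold change was 0.12 (SE 0.049, 95% interval 0.019 to 0.22), with an unadjusted p of 0.0216 and an adjusted p = 0.157 in edgeR's test over all genes. An unadjusted p below 0.05 was found for 5 of 10 enzymes and for 19.5% of all tested genes. Me1 was called higher after a trend on GC content was removed (log2 fold change 0.15, adjusted p = 0.00147) and without control 2 (0.17, adjusted p = 0.0228), but not without control 2 when the filter was recomputed (0.17, adjusted p = 0.121). Without control 1, EM-plasma 1 or EM-plasma 2 it was not called (adjusted p = 0.225, 0.72 and 0.73).

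Idh1 makes NADPH from isocitrate in the cytosol and in peroxisomes (chromosome 1, 65158616 to 65186500, minus strand, ENSMUSG00000025950). It was at 133 and 142 CPM in the controls and at 112 and 116 CPM in the treated libraries. Both treated libraries were below both controls. The mean of 137 ± 6.60 CPM went to 114 ± 3.04 CPM, a fall of 16.8% (-0.26 on the log2 scale with an SE of 0.051, adjusted p = 0.00141). The call held without control 1, control 2 or EM-plasma 2 (adjusted p = 0.0111, 0.0137 and 0.0499) and ended without EM-plasma 1 (adjusted p = 0.18). With the filter recomputed it ended without control 2 too (adjusted p = 0.116).

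Idh2, the mitochondrial counterpart (chromosome 7, 80094846 to 80115392, minus strand, ENSMUSG00000030541), was at 429 and 416 CPM in the controls and at 401 and 406 CPM in the treated libraries. The treated libraries were below both controls by a small margin. The log2 fold change was -0.066 (SE 0.042, 95% interval -0.15 to 0.020, adjusted p = 0.416), and after the GC trend was removed Idh2 was called lower (-0.094, adjusted p = 0.0267). Per kilobase, the ratio of Idh1 to Idh2 was 0.241 and 0.265 in the controls and 0.217 and 0.223 in the treated libraries. The groups of this ratio did not overlap, and the distance between the nearest libraries of the groups was smaller than that between the controls.

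Of the listed enzymes that make NADPH in the cytosol, G6pdx and Pgd rose, Idh1 fell and Me1 was not called. The ratio of G6pdx plus Pgd to Idh1 plus Idh2, per kilobase, was 0.613 and 0.595 in the controls and 0.772 and 0.759 in the treated libraries, 26.7% higher by the group means. This ratio is not of the cytosol alone, since it takes in the mitochondrial Idh2, which was not called. It was not among the ratios set beforehand. It sets G6pdx and Pgd, called higher, over Idh1, called lower, so its shift restates those calls. In the controls Idh2 stood at 236 CPM per kilobase, against 59.7 for Idh1. The summed level of the oxidative enzymes was 201 and 192 CPM per kilobase in the controls and 229.9 and 229 in the treated libraries. That of the non-oxidative enzymes was 302 and 291 in the controls and 310.1 and 312 in the treated libraries. The oxidative to non-oxidative ratio was 0.667 and 0.660 against 0.741 and 0.735. These ratios are given as values without a test and add no support to the calls of single enzymes.

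The transcripts differed far more in level from each other than between groups. Per kilobase of the longest transcript, Idh2 was highest in the controls at 236 ± 5.03 CPM per kilobase (SD, n = 2). Tkt followed at 147 ± 5.85, Taldo1 at 115 ± 3.31, G6pdx at 96.6 ± 2.93 and Pgd at 82.0 ± 2.13 CPM per kilobase. Idh1 stood at 59.7 ± 2.87 and Me1 at 46.1 ± 2.15, and the lowest levels were 25.2 ± 1.83 for Rpe, 18.2 ± 1.43 for Pgls and 10.1 ± 0.340 for Rpia. No neighbours in this order overlapped between the control libraries. In the treated libraries Idh1 and Me1 did, at 49.7 ± 1.32 and 50.1 ± 0.318 CPM per kilobase. With the union of all exons as length the order changed, and Tkt came after G6pdx and Taldo1, at 64.3 against 83.1 and 71.9 CPM per kilobase in the controls. Pgd then came after Idh1, at 46.4 against 49.6 CPM per kilobase.

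**Figure D3:**
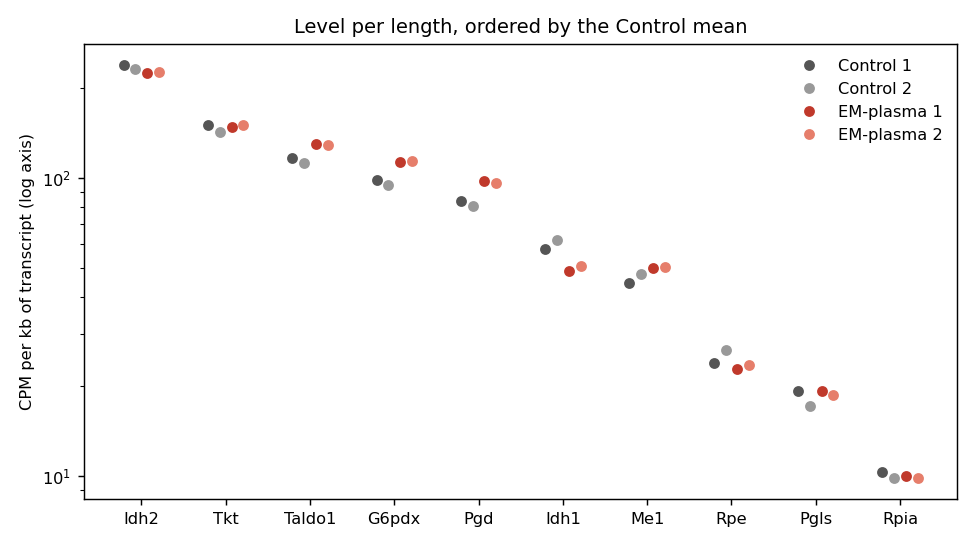
Level of each enzyme transcript per kilobase of its longest transcript in each library (log axis), ordered by the control mean. Levels run from about 10.1 CPM per kilobase for Rpia to 236 for Idh2 in the controls, and Idh1 and Me1 meet in the treated libraries.

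The spread within the control group was larger than within the treated group, relative to the mean, for 10 of 10 enzymes, and for 62.4% of all tested genes. Control 1 was higher than control 2 for 7 enzymes, and lower for Rpe, Me1 and Idh1.

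Promoter sequence was read from RefSeq on GRCm38.p6, in windows of 300 bases that reach from 250 bases before a start site to 50 after it. Windows were found for 10 of 10 enzymes, 13 in all, since Pgd, Me1 and Idh1 have an additional start. The core of the antioxidant response element, the NRF2 recognition motif, was searched as TGACNNNGC on both strands. It was in 12.4% of all 32851 windows and in 3 of the 13, those of G6pdx, of the main start of Me1 and of the downstream start of Pgd, where it begins after the start site. The matches of G6pdx and Me1 are shown with their surroundings because one gene was called higher and the other was not; capitals mark the match, which lies on the opposite strand in G6pdx. They are at chrX:74428918-74428947 and chr9:86695901-86695930, and both are printed in the direction of the gene.
G6pdx: aggcgggtcaGCTCAGTCAaagcacacgcc
Me1: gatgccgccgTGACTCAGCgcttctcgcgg
The match began 57 bases before the RefSeq start site of G6pdx and 6 bases before that of Me1. Both matches lie inside the GENCODE spans of these genes given above, which begin further upstream. No upstream base of the G6pdx window was outside annotated exons. The match in Me1 also holds the AP-1 motif TGANTCA, which was in 7.81% of all windows.

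Of the other called enzymes, Pgd and Taldo1, which rose, and Idh1, which fell, had no match to the antioxidant motif in the window of their main start. Their upstream sequence outside annotated exons is shown for comparison, with matches to GGGCGG (GC box) or CCAAT, on either strand, in capitals. The main window of Pgd also holds CCAAT matches 46 and 9 bases before the start site, which lie outside the stretch shown. The stretches are chr4:149166772-149166955 on the minus strand, chr7:141391910-141392159 on the plus strand and chr1:65186501-65186682 on the minus strand.
Pgd: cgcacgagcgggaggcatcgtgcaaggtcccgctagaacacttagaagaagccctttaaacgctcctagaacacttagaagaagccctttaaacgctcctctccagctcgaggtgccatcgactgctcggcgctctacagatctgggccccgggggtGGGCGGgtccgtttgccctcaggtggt
Taldo1: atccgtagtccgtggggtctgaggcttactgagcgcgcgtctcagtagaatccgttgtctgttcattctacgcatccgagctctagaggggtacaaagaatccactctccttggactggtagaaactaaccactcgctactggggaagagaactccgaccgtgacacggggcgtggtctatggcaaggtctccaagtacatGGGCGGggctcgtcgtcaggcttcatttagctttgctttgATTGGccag
Idh1: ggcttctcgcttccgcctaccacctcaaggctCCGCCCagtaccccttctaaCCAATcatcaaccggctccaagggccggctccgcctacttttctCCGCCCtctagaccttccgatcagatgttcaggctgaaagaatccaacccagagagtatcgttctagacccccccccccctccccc
GC boxes were in 11 of the 13 windows and in 35.7% of all windows, and CCAAT in 6 of the 13 and in 37.4% of all. The sterol regulatory motif TCACNCCAC, the amino acid response motif TGATGNAA and the E-box CACGTG were in 0 of the 13 windows, and in 1.24%, 3.97% and 7.15% of all windows. A match describes letters in a window and is not a measured binding site.

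Genes around these enzymes were read from 7 lists, in which 6.21% of all tested genes serves as the share called in either direction. Of 11 tested genes of other pentose phosphate and ribose steps, 0 were called by edgeR, DESeq2 or limma voom, and 2 had an unadjusted p below 0.05. The most abundant, Pgm1, a phosphoglucomutase, had a mean of 188 ± 5.80 CPM in the controls and of 179.7 ± 1.29 CPM with EM-plasma (adjusted p = 0.513). Tktl1 and Tktl2, the transketolase-like genes, named after their values were seen, had 0 reads.

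Of 12 tested genes listed as NADPH-linked mitochondrial and folate enzymes and NAD kinases, 3 rose and 1 fell. The median of their log2 fold changes was -0.0094, and which cofactor each enzyme used was not measured. Aldh1l2, the mitochondrial formyltetrahydrofolate dehydrogenase, which makes NADPH, was at 87.9 and 88.1 CPM in the controls and at 113 and 116 CPM in the treated libraries. It rose 1.31-fold (log2 fold change 0.39, SE 0.052, adjusted p = 1.13e-05). Mthfd2, the mitochondrial methylenetetrahydrofolate dehydrogenase, rose 1.25-fold, from 226 ± 4.81 to 283 ± 8.99 CPM (adjusted p = 2.33e-05), and Mthfd1l, its partner synthetase, rose by 0.17 on the log2 scale (adjusted p = 0.0176). Aldh1l1, the cytosolic counterpart of Aldh1l2, fell from 48.9 ± 2.25 to 41.3 ± 1.26 CPM (log2 fold change -0.25, adjusted p = 0.0163). Cytosolic and mitochondrial members of this enzyme pair thus went in opposite directions. The call of Aldh1l2 held whichever library was left out, and so did that of Mthfd2 unless the filter was recomputed without control 2 (adjusted p = 0.0602). That of Mthfd1l ended without EM-plasma 1 or EM-plasma 2 (adjusted p = 0.271 and 0.55) and, with the filter recomputed, also without control 1 (0.0593) or control 2 (0.12). That of Aldh1l1 ended without control 1, EM-plasma 1 or EM-plasma 2 (0.0668, 0.177 and 0.401) and, with the filter recomputed, also without control 2 (0.11).

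Of 12 genes of the NAD-dependent isocitrate dehydrogenase and the neighbouring citrate steps, 0 rose and 2 fell. Both that fell act in the export of citrate or in its use for lipid synthesis. They were Acly, ATP citrate lyase (611 ± 17.8 to 545 ± 14.2 CPM, adjusted p = 0.0147), and Slc25a1, the mitochondrial citrate carrier (69.4 ± 1.69 to 60.0 ± 1.38 CPM, adjusted p = 0.0266). Without control 1, EM-plasma 1 or EM-plasma 2 both calls ended (adjusted p = 0.0553, 0.57 and 0.238 for Acly and 0.0612, 0.291 and 0.49 for Slc25a1). With the filter recomputed both also ended without control 2 (0.0921 and 0.132).

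Of 14 genes of glucose entry and the glucose 6-phosphate branch, 1 rose and 1 fell. Hk1, a hexokinase that makes glucose 6-phosphate, rose 1.14-fold (360 ± 24.0 to 411 ± 3.58 CPM, adjusted p = 0.0092), and its call ended without EM-plasma 1 or EM-plasma 2 (adjusted p = 0.299 and 0.21) and, with the filter recomputed, also without control 2 (0.148). Pfkl, a phosphofructokinase subunit that draws hexose phosphate into glycolysis, was at 112 and 104 CPM in the controls and at 84.5 and 82.8 CPM in the treated libraries. Pfkl fell 1.29-fold (log2 fold change -0.36, SE 0.054, adjusted p = 5.39e-05), and the call held whichever library was left out. Pfkm and Pfkp, the other subunits, named after their values were seen, did not pass the test (adjusted p = 0.271 and 0.929).

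**Figure D4:**
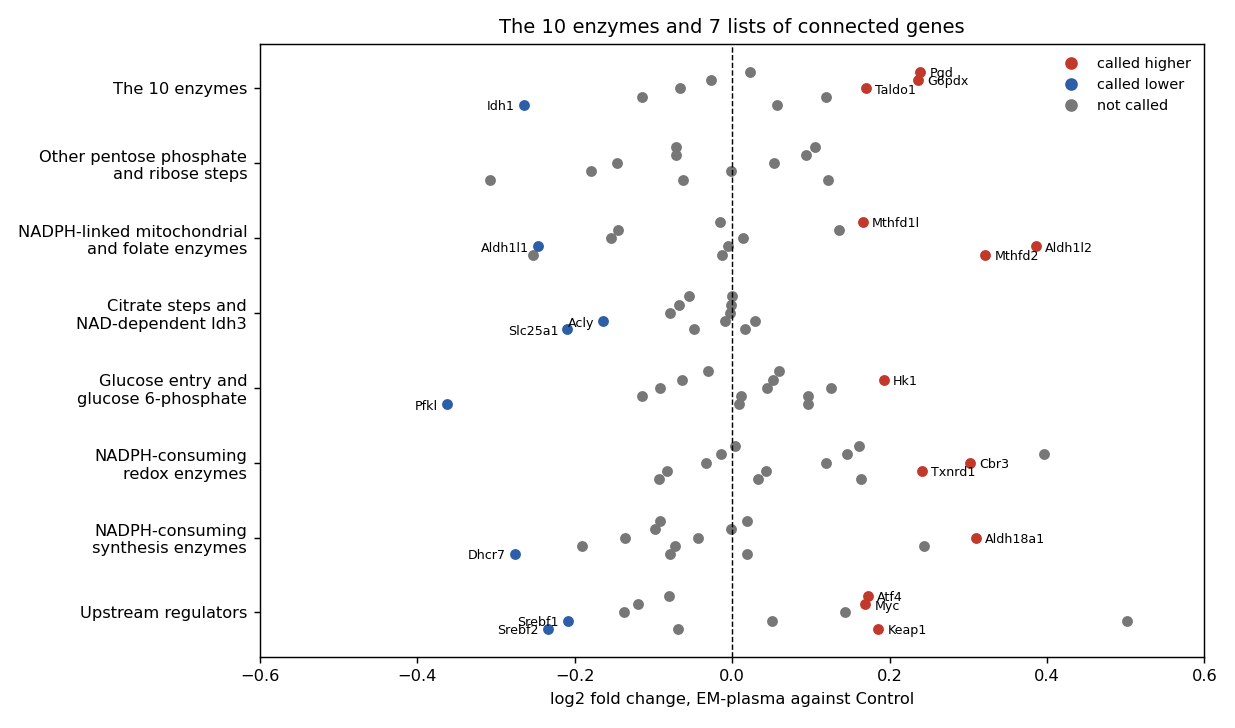
Log2 fold change of EM-plasma against control for the 10 enzymes and the tested genes of 7 lists (points, spread vertically for legibility; called genes are coloured and named). Called genes lie on both sides of 0 in the enzymes and in 4 of the lists, on the lower side in the citrate list and on the higher side among the redox enzymes.

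Of 14 genes listed as redox enzymes that consume NADPH, 2 rose and 0 fell, and the median of their log2 fold changes was 0.081. Txnrd1, cytosolic thioredoxin reductase, rose from 562 ± 2.88 to 664 ± 7.11 CPM (log2 fold change 0.24, adjusted p = 0.000215), and Cbr3, a carbonyl reductase, from 30.7 and 29.3 CPM to 35.6 and 38.4 CPM (0.30, adjusted p = 0.00575). Both calls ended without EM-plasma 2 (adjusted p = 0.0831 and 0.30), and with the filter recomputed that of Cbr3 also ended without control 1 (0.0558) or control 2 (0.18). Akr1a1, an aldehyde reductase, and Cyb5r3, a cytochrome b5 reductase known to use NADH rather than NADPH, were the most abundant of the list after Txnrd1 and did not pass (adjusted p = 0.90 and 0.326). Gsr, glutathione reductase, and Nqo1, the quinone reductase, were named after their values were seen: their log2 fold changes were 0.16 (95% interval 0.058 to 0.26, adjusted p = 0.0529) and 0.40 (0.12 to 0.67, adjusted p = 0.0752).

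Of 13 NADPH-consuming synthesis enzymes 1 rose and 1 fell. Aldh18a1, which starts proline synthesis, rose from 146 ± 3.88 to 180 ± 2.96 CPM (adjusted p = 8.56e-05). Its call held whichever library was left out, unless the filter was recomputed without control 2 (adjusted p = 0.0554). Dhcr7, which ends cholesterol synthesis, fell from 207 ± 6.87 to 171 ± 3.61 CPM (adjusted p = 0.000332), and the call ended without EM-plasma 2 (adjusted p = 0.0964).

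Of 12 upstream regulators 3 rose and 2 fell. Atf4, Myc and Keap1, the inhibitor of NRF2, rose by 0.17, 0.17 and 0.19 on the log2 scale (adjusted p = 0.016, 0.0355 and 0.0482). Srebf1 and Srebf2, the lipid factor genes, fell by 0.21 and 0.23 on the log2 scale (adjusted p = 0.0116 and 0.00217). Nfe2l2, the gene of NRF2, named after its value was seen, had a mean of 175 ± 2.60 CPM in the controls and of 159 ± 1.65 CPM with EM-plasma (adjusted p = 0.0812). DESeq2 did not call Keap1 (adjusted p = 0.0683). None of these 5 calls held in every fit that left out a library. Keap1 passed in none of them. The call of Myc ended without control 2 (adjusted p = 0.0811), EM-plasma 1 (0.623) or EM-plasma 2 (0.329), and that of Atf4 without EM-plasma 1 (0.418) or EM-plasma 2 (0.387). That of Srebf1 ended without control 1 (0.106), EM-plasma 1 (0.0966) or EM-plasma 2 (0.395), and that of Srebf2 without EM-plasma 2 (0.227). With the filter recomputed the calls of Myc and Srebf2 also ended without control 1 (0.0524 and 0.0638), and those of Atf4, Srebf1 and Srebf2 without control 2 (0.0997, 0.0763 and 0.0597).

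**Figure D5:**
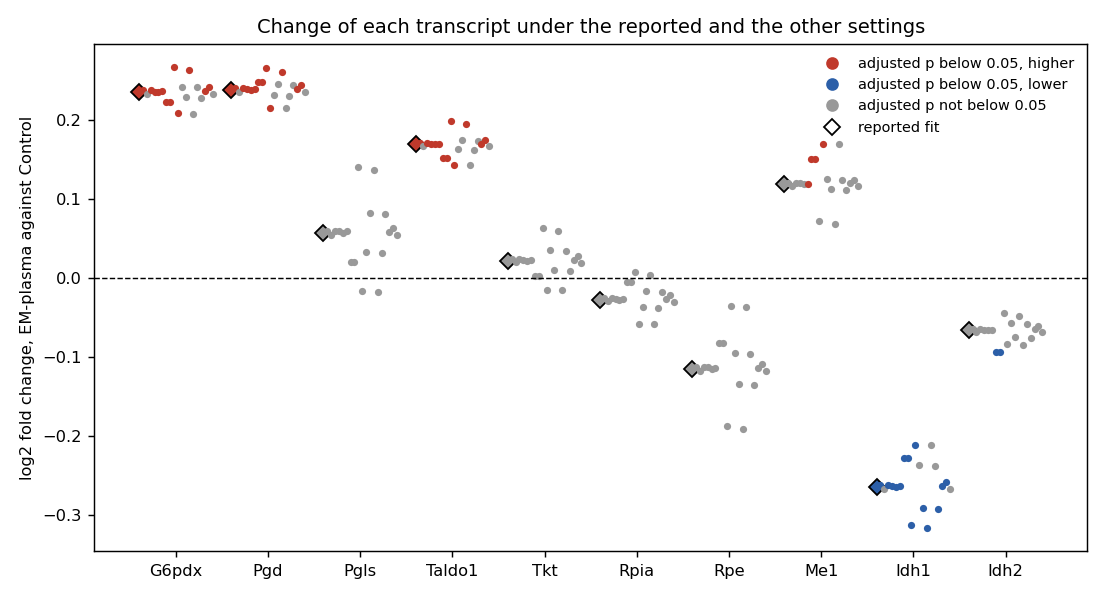
Log2 fold change of each enzyme in the reported fit (diamond) and under the other settings (circles, from left to right in 1 order for each gene), coloured where the adjusted p is below 0.05. G6pdx, Pgd, Taldo1 and Me1 stay above 0 and Rpe, Idh1 and Idh2 below 0 in all of these settings, while Pgls, Tkt and Rpia cross 0.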

How the data were processed

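The submitters' processing notes name CASAVA, TopHat2 2.1.1, HTSeq, edgeR and the build GRCm38, without saying what each was used for. Per the labels' protocols the libraries were made with a stranded poly(A) kit. Which annotation was counted, and whether strand was used in counting, is not stated. The authors deposited a table of whole-number read counts per Ensembl gene, 1 column per library. The scaled tables deposited per sample were not used. Symbols were found for 53360 rows (99.8%) in GENCODE M21, which also gave positions, transcript lengths and GC content.

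Genes were kept by filterByExpr and tested with edgeR 4.0.16 (R 4.3.3), with TMM scaling and a two-sided quasi-likelihood F test on group alone. P-values were adjusted by Benjamini-Hochberg over 13664 genes and called at an adjusted p below 0.05. The biological coefficient of variation was 4.00%. Intervals are 95% intervals of the fit. The procedure was run on simulated counts with independent libraries and the dispersion fitted to these data. That run does not bear on a pairing of libraries, the GC trend or the choice of filter. The members, lists and tests were chosen with earlier results of these data known. Named are all 10 members, every called gene of a list or else its most abundant gene, and the 3 most abundant redox enzymes. Overlapping genes, copies and markers are named beside the results they touch, and other genes are marked as named after their values were seen. DESeq2 1.42.0, limma voom (limma 3.58.1), RLE scaling, other filters and dispersion, a GC trend, a replicate block and leaving out each library were tried.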

Additional observations from a re-analysis of the deposited data

How the results depend on the processing

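The direction of G6pdx, Pgd, Taldo1, Me1, Rpe, Idh1 and Idh2 was kept in 19 of 19 alternatives. Over the fits that leave out a library, the log2 fold change ran from -0.017 to 0.14 for Pgls and from -0.015 to 0.064 for Tkt, both below 0 without control 2 (-0.017 and -0.015 with the filter recomputed). For Rpia it ran from -0.058 to 0.0077, above 0 without control 1 (0.0038 with the filter recomputed). DESeq2 called 557 genes (277 higher) against 849 (456 higher, 393 lower) reported. Without the filter on low counts 14 genes were called (13 higher, 1 lower), and 0 with the newer dispersion estimate as well, with 0 members and 0 genes of each list. The replicate block called 1683 genes (832 higher, 851 lower), 4 redox enzymes and 8 regulators, and Me1 (adjusted p = 0.0453). Libraries with the same number had deviations that correlated at 0.039 over all tested genes. Counting noise enters this value, so it cannot decide whether the numbers pair the samples, and the labels do not say. With the GC trend removed 1851 genes were called (868 higher, 983 lower), with 2 members lower (Idh1, Idh2), 1 gene of other pentose steps, 5 redox enzymes and 8 regulators. The replicate block with the GC trend removed called 2568 (1199 higher, 1369 lower), with 2 members lower, 1 gene of other pentose steps, 5 redox enzymes, 5 synthesis enzymes and 9 regulators. Leaving out each library gave 252 to 1118 genes, 163 to 525 higher and 88 to 593 lower. It gave 0 to 4 members higher and 0 to 1 lower. Over the lists it gave 0 to 1 gene of other pentose steps, 2 to 4 of the mitochondrial and folate list, 0 to 2 of the citrate list and 1 to 2 of glucose entry. It gave 0 to 3 redox enzymes, 1 to 3 synthesis enzymes and 0 to 6 regulators. With the filter recomputed, an alternative chosen after seeing the data, as were the filters at 10 reads and at 1 CPM and the unfiltered fit with the newer dispersion, 547 genes were called when control 1 was left out, 71 for control 2, 262 for EM-plasma 1 and 256 for EM-plasma 2. In this order 258, 48, 157 and 166 were higher and 289, 23, 105 and 90 lower. Members called higher were 3, 0, 0 and 0 and lower 1, 0, 0 and 1. The mitochondrial and folate list had 2, 1, 2 and 2 calls, the citrate list 0 in each and glucose entry 2, 1, 1 and 1. Redox enzymes had 1, 1, 2 and 0, synthesis enzymes 2, 1, 2 and 1 and regulators 3, 0, 1 and 0. The cause of these changes was not tested. With 2 libraries a group, small differences such as those of Pgls, Rpia and Rpe were within the intervals at this depth.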
